A study of Homo sapiens with 13 samples.

Results

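The reporter elements described here carry reference and alternative alleles at positions of scoliosis-associated variants of the CSMD1 locus on chromosome 8. They were taken by coordinate alone, as every reference and alternative pair placed between 3.1 and 3.15 Mb of chromosome 8 (hg19). This gave 252 of the 4468 allele pairs in the series and 86 of its 1579 variant positions, which correspond to 338 elements. The positions run from 3120483 to 3136331, in hg19 coordinates numbered from 1, a stretch of 15848 bp. From general knowledge of hg19 this stretch lies within CSMD1. An hg19 annotation was not used here, so exon or intron is not stated for any position, and no sequence of the elements is printed.

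Adolescent idiopathic scoliosis bends the spine to the side in growing children, and the variant positions came from genome-wide association studies of it. A lentiviral massively parallel reporter assay (lentiMPRA) of such positions was run in 2 human lines. These were TC28a2, an immortalised chondrocyte line, and SW1353, a line derived from a chondrosarcoma, a cartilage tumour. Both lines received the same treatment, infection with the variant library followed by incubation for 48 hours, and each gave 3 DNA and 3 RNA libraries, with DNA and RNA taken from the cells at the same time. The labels number the replicates 1 to 3 without saying whether they were separate cultures, so p-values measure the spread between labelled replicates, which may be technical. As described below, the labelled replicates may mix values of different samples. If so, the p-values, replicate ranges and results with a replicate left out do not measure the spread between samples. A cell line is 1 model of its cell type, and no uninfected or treated group was part of the comparison.

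CSMD1 encodes a very large transmembrane protein built of CUB and sushi repeats, a domain type shared with regulators of the complement system, and it is best known for its expression in the nervous system. Its introns are among the longest of human genes, and association signals inside such genes often fall in non-coding sequence. Non-coding sequence can act as an enhancer, a stretch bound by transcription factors that raises transcription from a promoter. In lentiMPRA each candidate sequence is placed in a reporter that carries barcodes in its transcript, and the construct is integrated into the genome. The RNA count of the barcodes of an element over their DNA count then measures how much transcript each integrated copy gives. Activity below is the log2 of this ratio minus that of the median scrambled control of the same line, so 0 is the level of the median scrambled sequence.

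The scrambled controls span 200 bp, as their names show, and 10 of the 14 from this stretch were centred on a tested position. Each variant element was therefore assumed to span 200 bp with its variant in the middle. All overlaps and shared bases given below rest on this assumption. Under it, neighbouring elements overlapped along most of the stretch. The gaps between adjacent positions ran from 5 to 1653 bp with a median of 86 bp, and 59 of 85 gaps were under 200 bp. The elements formed 27 separate groups, of which the largest held 10 positions and 11 held a single position. The widest gap lay between 3123845 and 3125498. Each of the 3 alternative bases was compared with 1 shared reference element at 83 positions, and the other 3 positions carried 1 single-base deletion or insertion each (2 deletions and 1 insertion). Which of the 3 bases is the allele of the association studies was not identified here. A variant below means any alternative, so allelic results are not results on disease-associated alleles as such. The elements of 1 position thus differ by a single base, and elements of adjacent positions share much of their sequence, so neither are independent of each other.

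The labelled replicates of the count files may mix values of different samples, as the order of values along the barcode positions fits their names only in part. Total counts, which cover only the first 500 barcode positions of an element and so are not full depths, were 5523658 to 5738307 in the DNA of TC28a2 and 22048832 to 22212124 in its RNA. In SW1353 they were 15582658 to 15626361 in DNA and 37571404 to 37631975 in RNA. The median element of the locus had 800 to 834 DNA counts per replicate in TC28a2 and 1499.5 to 1531.5 in SW1353, and all 338 elements had at least 10 DNA barcodes in every replicate of both lines. The counts of 118 elements in TC28a2 (34.9%) and of 84 in SW1353 (24.9%) reached the last barcode position, where barcodes beyond it are missing. The median replicate standard deviation (SD) of activity was 0.21 (log2) for an element in TC28a2 and 0.23 in SW1353, and 0.13 in both lines once the counts of all elements of a position were summed. Summed values are called position activity.

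Most positions of the locus drove more transcript than the median scrambled sequence. Their share was near that of all features and above that of positions of the other loci. In TC28a2, position activity was above the scrambled level at 54 of 86 positions (62.8%) and below it at 4, by edgeR's quasi-likelihood test with Benjamini-Hochberg adjustment over all features tested. Over all features of that fit 59.5% were above and 5.7% below. In SW1353, 62 of 86 positions (72.1%) were above and 1 was below, against 66.7% and 2.59% of all features. Among positions of the other loci the shares above were 55.1% in TC28a2 and 61.4% in SW1353, and the shares below 6.25% and 3.36%. Of the 191 scrambled controls themselves, 16.2% were above and 11.5% below in TC28a2, and 13.6% each way in SW1353. These controls spanned -0.98 to 1.27 in TC28a2 and -1.59 to 1.63 in SW1353. A call is thus a difference from the median control and does not place a position outside the range of the controls. The median activity at the locus was 0.27 in TC28a2 and 0.41 in SW1353, beside 0.28 and 0.39 at the positions of the other loci. The share above was thus near that of all features in both lines and above that of the other loci, a difference not tested. It rests on the reference level. Against the median of all features instead of the scrambled controls, a shift of 0.33 in TC28a2 and 0.58 in SW1353, TC28a2 had 15 positions above (17.4%) and 26 below (30.2%), beside 27.0% and 22.5% of all features. SW1353 had 16 above (18.6%) and 31 below (36.0%), beside 33.7% and 23.4%. At that level the share above at the locus was under that of all features in both lines. The features, 2755 in TC28a2 and 5280 in SW1353, also hold scrambled controls and other elements that are no variant positions. Shares for the positions of the other loci, 1487 and 1486 of these features, were not computed at that level.

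Single elements, which had fewer counts, were called less often. In TC28a2, 102 of 338 elements (30.2%) were above the scrambled level and 7 (2.07%) below (background 32.3% and 2.71%). In SW1353, 163 (48.2%) were above and 3 (0.888%) below (background 48.8% and 1.73%). With the highest barcode of each element and library left out, 173 elements (51.2%) were above in TC28a2, beside 47.0% of all elements. Against the median of all elements, 25 were above (7.40%) and 25 below in TC28a2, beside 11.7% and 8.21% of all, while SW1353 had 53 above (15.7%) and 34 below (10.1%), beside 23.9% and 10.7%. Reference and alternative elements were called at like rates, with 26 of 86 reference and 76 of 252 alternative elements above in TC28a2, and 42 and 121 in SW1353. At the other loci 27.3% of reference and 26.8% of alternative elements were above in TC28a2 (2.86% and 2.42% below), and 36.3% and 37.4% in SW1353 (1.84% and 1.46% below). All elements of a position were above at 14 positions in TC28a2 and at 29 in SW1353, while none was above at 45 and 31 positions. In TC28a2 the count of elements above was 65 without replicate 1 (19.2%, beside 23.6% of all elements) and 66 without replicate 3 (19.5%, beside 23.2%). Activity moved with depth: across the 86 positions, which share their libraries, it correlated with the log2 DNA total at r = 0.430 in TC28a2 and 0.463 in SW1353, and elements at the barcode limit had median activities of 0.38 and 0.71, against 0.19 and 0.31 for the others. The part of depth in these counts was not tested.

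The alleles of a position gave similar activities compared with the range along the locus. The SD of activity between positions was 0.37 in TC28a2 and 0.44 in SW1353. Among the 4 elements of 1 position the median SD was 0.12 in TC28a2 and 0.14 in SW1353. The order of positions was alike in the lines, with Pearson's r = 0.891 and Spearman's rho = 0.815 over 86 positions that share sequence with their neighbours. Of the 54 positions above the scrambled level in TC28a2, 53 (98.1%) were also above in SW1353, which is 85.5% of the 62 there. Most features were above in SW1353 (66.7% of all), and the overlap was not computed over all features.

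The most active sequence of the locus was that around position 3125811, in a group of 3 overlapping positions. In TC28a2 its position activity was 1.53, 1.67 and 1.57 in replicates 1 to 3, and in SW1353 it was 2.80, 2.30 and 2.34. In SW1353 all 3 values lay above every replicate of any other position, while in TC28a2 the highest replicate of position 3134081, 1.55, fell among them. The fitted activity was 1.58 (SE 0.102, adjusted p = 5.35e-17) in TC28a2, a 2.99-fold ratio to the median scrambled control, and 2.43 (SE 0.102, adjusted p = 8.59e-09) in SW1353, a 5.38-fold ratio, both by edgeR's quasi-likelihood test. It ranked 4 of 1573 variant positions in TC28a2 and 3 of 1572 in SW1353. All 4 alleles were active, with fitted element activities of 1.44 to 1.74 in TC28a2 and, in SW1353, 2.08 to 2.79. Its DNA totals, 3343 and 6050 counts, were below the locus medians of 9458 and 17561, and none of its elements reached the barcode limit.

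Position 3134081 was second. Its replicates gave 1.31, 1.35 and 1.55 in TC28a2 and 1.35, 1.65 and 1.18 in SW1353. The lines overlapped here, unlike at 3125811. The fitted activity was 1.40 (SE 0.0741) in TC28a2 and 1.34 (SE 0.0986) in SW1353, with adjusted p = 8.76e-20 and 5.59e-07 in the edgeR fits. Again all 4 alleles were above the scrambled level in both lines, at 1.15 to 1.65 in TC28a2 and, in SW1353, 0.96 to 1.70.

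The next 4 positions by the mean of both lines were lower and closer together. Position 3136331, the last of the locus, gave 0.92, 0.78 and 0.87 in TC28a2 and 1.17, 1.24 and 1.08 in SW1353. Position 3131756 gave 0.89, 0.73 and 1.06 in TC28a2 and 1.18, 1.02 and 0.92 in SW1353. Their replicate ranges overlapped within each line, so their order is not resolved. Position 3131381 gave 0.72, 0.85 and 0.53 in TC28a2 and 1.06, 1.24 and 0.97 in SW1353. Position 3135803 varied most between replicates, with 0.74, 0.50 and 1.05 in TC28a2 and 1.66, 0.89 and 0.80 in SW1353. All 4 positions were above the scrambled level in both lines, with the largest adjusted p (edgeR) at 3135803, 2.30e-07 in TC28a2 and 0.000131 in SW1353.

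At the other end stood 1 isolated position, that of the variants G3128471A, G3128471C and G3128471T (written as the reference base, the hg19 position and the alternative base). It was singled out with its low value known, so its level is given as a description with no test. The counts of positions and elements below the scrambled level given before include it. Its position activity was -1.57, -0.73 and -1.32 in TC28a2 and -1.21, -0.86 and -1.17 in SW1353. Each of these values was under every replicate of any other position in its line. The fitted values were -1.21 (SE 0.218) and -1.13 (SE 0.252), 0.432 and 0.456 times the median scrambled control, and only 1 variant position of the whole series was lower in each line. All 4 alleles were low. In TC28a2 the reference G element was at -1.38, the A element at -1.59, the C element at -0.86 and the T element at -1.37. In SW1353 the same elements were at -1.37, -1.95, -1.25 and -0.76. The A element was the lowest of the 4 in both lines, and the highest was C in TC28a2 and T in SW1353. The position had the lowest DNA total of the locus in both lines, 901 counts in TC28a2 and 1519 in SW1353, and its A element rested on as few as 9 RNA counts in 1 SW1353 replicate. Its elements overlapped no other of the locus.

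The other low positions stayed close to the scrambled level. Position 3128148 gave -0.47, -0.41 and -0.18 in TC28a2, where its fitted activity of -0.36 (SE 0.147) passed the test (adjusted p = 0.0295, edgeR). In SW1353 it gave 0.34, -0.21 and -0.38, on both sides of 0. Position 3133939 gave -0.40, -0.33 and -0.29 in TC28a2 and passed (fitted -0.35, SE 0.103, adjusted p = 0.00303, edgeR), while its SW1353 values of 0.27, -0.17 and 0.03 also lay on both sides of 0. The call of 3128148 was lost without replicate 1 and without replicate 2 (-0.31 each). The fitted activities of 3127484 (-0.24 in TC28a2 and -0.23 in SW1353), 3135792 (-0.28 and -0.10) and 3135714 (-0.23 and -0.14) did not pass in either line, although the last passed in TC28a2 without replicate 3 (-0.56). Below the scrambled level in TC28a2 there was also position 3123845 (fitted -0.17, SE 0.0745, adjusted p = 0.0484, edgeR). Without replicate 2 only 2 positions were below in TC28a2 (2.33%, beside 3.08% of all features).

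Closely spaced positions differed little in the median, and this likeness faded within the length of an element. The median absolute difference between positions up to 50 bp apart was 0.12 in TC28a2 and 0.13 in SW1353 (28 pairs). At 51 to 100 bp it was 0.23 and 0.28 (38 pairs), and from there up to 200 bp 0.32 and 0.36 (49 pairs). The last values are about those of pairs over 200 bp apart, 0.29 and 0.36 (3540 pairs), which share no sequence. Correlation was weak even for pairs up to 50 bp apart, with Pearson's r = 0.192 in TC28a2 and 0.380 in SW1353. The largest absolute differences there were 1.03 and 1.17. At 51 to 100 bp r was 0.177 and 0.229. The pairs share positions and libraries and are described without a test.

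Although closely spaced positions differed little in the median, some adjacent overlapping elements differed sharply. Each step from a position to the next one along the chromosome, where these were under 200 bp apart, was tested as the difference of position activity, a test added after the values had been seen. Of 59 steps at the locus, 16 passed in TC28a2, 10 upward and 6 downward in the direction of increasing coordinate, and 17 passed in SW1353, 9 upward and 8 downward. Over the 480 such steps of the series, 13.8% passed upward and 11.5% downward in TC28a2, and 13.5% and 10.8% in SW1353. The locus thus had steps about as often as the rest. At 11 steps the test was passed in both lines, in all 11 with the same direction. The share passed in both lines was not computed over the 480 steps of the series.

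The shortest of these steps lay between positions 3135792 and 3135803, which are 11 bp apart and whose elements share 189 bp. Their DNA totals were 2954 and 3483 counts in TC28a2 and 5112 and 5620 in SW1353, below the locus medians of 9458 and 17561. The elements of 3135803 spanned 0.42 to 1.38 in TC28a2 and 0.57 to 1.35 in SW1353. In TC28a2 the first gave -0.36, -0.44 and -0.01, and the second the 0.74, 0.50 and 1.05 listed before. In SW1353 the first gave -0.18, -0.12 and 0.15 against 1.66, 0.89 and 0.80. The replicates did not overlap in either line, and neither did the alleles: the highest of the 4 elements at 3135792 was at -0.17 in TC28a2 and 0.20 in SW1353, and the lowest of the 4 at 3135803 was at 0.42 and 0.57. The step was 1.03 (SE 0.172, adjusted p = 0.000408) in TC28a2 and 1.17 (SE 0.227, adjusted p = 0.00208) in SW1353, edgeR.

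The active position 3134081 was flanked by steps on both sides. Position 3133958, 123 bp before it, gave -0.20, 0.20 and -0.05 in TC28a2 and -0.21, -0.02 and 0.10 in SW1353. Position 3134171, 90 bp after it, gave 0.59, 0.35 and 0.38 in TC28a2 and 0.50, 0.50 and 0.87 in SW1353. All replicates of the central position lay above those of both neighbours. The rise was 1.42 (SE 0.131) in TC28a2 and 1.43 (SE 0.159) in SW1353, and the fall was -0.96 (SE 0.117) and -0.77 (SE 0.161), with adjusted p between 2.25e-06 and 0.00343 in the edgeR fits. Beyond 3134171 the fitted activities were 0.27 at 3134192, 0.37 at 3134210, 0.06 at 3134239 and -0.15 at 3134336 in TC28a2, and 0.47, 0.35, 0.21 and 0.11 in SW1353. None of the 4 steps between these neighbours passed in either line.

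Position 3125811 had an overlapping neighbour on 1 side, since 3125498 is 313 bp away and shares no bases with it. Position 3125885, 74 bp further on and sharing 126 bp, gave 0.29, 0.40 and 0.46 in TC28a2 and 0.91, 1.09 and 0.81 in SW1353. All replicates lay below those of 3125811. The fall was -1.20 (SE 0.111, adjusted p = 2.25e-06, edgeR) in TC28a2 and -1.54 (SE 0.129, adjusted p = 5.37e-06, edgeR) in SW1353.

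Other steps passed in both lines framed short troughs. Activity fell from 3133888 to 3133939, 51 bp apart, by 0.81 on the log2 scale in TC28a2 and by 0.80 in SW1353. It rose from 3131709 to 3131756, 47 bp apart, with steps of 0.88 and 0.81. Position 3131709 was at the scrambled level in TC28a2, with replicates of 0.17, -0.00 and -0.14, while 3131756 is among the 6 highest. A trough at 3131312, the position of the inserted base, was bounded by a fall from 3131246 (-0.44 in TC28a2 and -0.76 in SW1353) and a rise to 3131381 (0.86 and 1.12). A shallower one at 3127484 was bounded by a fall from 3127416 (-0.51 in both lines) and a rise to 3127647 (0.60 and 0.67), and a rise of 0.63 and 0.73 followed 3128148.

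Of the 11 steps, 6 passed in both lines with any 1 replicate left out: those at 3125811, into 3131381, into 3131756, into 3133939, into 3134081 and into 3135803. In TC28a2 the fall from 3131246 was lost without replicate 1 (-0.36) and replicate 3 (-0.39), the fall from 3127416 without replicate 2 (-0.43) and replicate 3 (-0.47), and the rise to 3127647 without replicate 2 (0.50). In SW1353 the fall from 3127416 was lost without replicate 2 (-0.48) and replicate 3 (-0.39), the rise from 3128148 without replicate 2 (0.71) and replicate 3 (0.58), and the fall after 3134081 without replicate 2 (-0.57). The number of steps passed in SW1353 was 11, 10 and 9 without replicates 1, 2 and 3.

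Groups of overlapping positions are described here by their ranges, which overlap, and differences between groups were not tested. The group of 9 positions from 3132262 to 3132901 was above the scrambled level at all 9 in both lines, with fitted activities of 0.23 to 0.60 in TC28a2 and, in SW1353, 0.41 to 0.99. The group of 10 from 3126922 to 3127786 spanned -0.24 to 0.36 in TC28a2 and -0.23 to 0.67 in SW1353, with medians of 0.22 and 0.31 and with 5 and 6 positions above. Low values gathered in the group of 5 positions from 3128018 to 3128206, with medians of -0.07 and 0.03 and 1 position above in each line. Before the widest gap the locus was quiet: of the first 7 positions, from 3120483 to 3123845, only 3120856 was above in TC28a2 (0.40), while 3120483, 3120856 and 3122111 were above in SW1353 (0.38, 0.48 and 0.35).

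Some native sequences could be set beside a scrambled version of themselves. The library held 14 scrambled controls from this stretch, of which 10 were centred on a tested position. The native reference element was the higher of the pair at 9 of 10 sites in TC28a2 and 8 of 10 in SW1353, with median differences of 0.44 and 0.43. The 9 sites include 3128703, where the difference in TC28a2 was only 0.00029. At 3134081 the native element was at 1.29 in TC28a2 and 1.25 in SW1353 and its scrambled version at -0.13 and -0.36. At 3131160 the native element was at 0.61 and 1.02 and the scrambled one at -0.24 and -0.47. At 3128703 the pair was alike, 0.50 and 0.50 in TC28a2 and 0.41 and 0.53 in SW1353, and there the scrambled sequence itself was above the median scrambled level (adjusted p = 0.00948 and 0.00432, edgeR). These scrambled controls spanned -0.56 to 0.50 (TC28a2) and -0.73 to 0.53 (SW1353), so the common reference level is only a middle of a wide spread.

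Where activity differed between the lines, it was higher in SW1353. The test of the difference itself passed at 23 of 86 positions (26.7%), all higher in SW1353, and at 24 of 338 elements (7.10%), also all higher. Over all features tested, 31.4% of the features of the position fit and 11.4% of those of the element fit were higher in SW1353, and 0.109% and 0.014% were lower. Among positions of the other loci 14.8% were higher and 0.0673% lower. Among elements of the other loci, 4.16% of reference and 4.04% of alternative elements were higher, and 0% and 0.024% lower. The shares higher at the locus thus lay under those of all features and above those of the other loci, which was not tested. The median difference at the locus was 0.15 over positions (0.21 over all features) and 0.14 over elements (0.15 over all). At the other loci it was 0.13 over positions, 0.11 over reference elements and 0.12 over alternative elements. Relative to the median of all features, the lines differed at 7 positions upward (8.14%) and 1 downward (1.16%), beside 20.6% and 2.03% of all features, and at 6 elements (1.78%, all upward), beside 8.03% of all. These counts depended on single replicates: without replicates 1, 2 and 3 the position count was 14, 12 and 19 and the element count 4, 2 and 15. Without the elements that reached the barcode limit, 2 of the 61 positions left and 0 of 220 elements passed (15 elements at an unadjusted p under 0.05), and the part of the limit in the difference was not tested.

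The largest difference was at the most active position, 3125811, where all 3 SW1353 replicates lay above all 3 of TC28a2. It was 0.85 (SE 0.141, adjusted p = 7.37e-05, edgeR), and none of its elements reached the limit in either line. Position 3133641 gave 0.32, 0.10 and 0.23 in TC28a2 and 1.13, 0.90 and 0.68 in SW1353, without overlap (difference 0.64, SE 0.0956, adjusted p = 2.41e-05, edgeR). Position 3131484 gave 0.61, 0.42 and 0.37 against 1.15, 1.14 and 1.04 (difference 0.60, SE 0.0826, adjusted p = 1.12e-05, edgeR). The lines did not overlap there either. Position 3132262 gave 0.44, 0.36 and 0.43 against 1.24, 0.99 and 0.91 (difference 0.59, SE 0.085, adjusted p = 1.59e-05, edgeR). At 3133641, 3131484 and 3132262 all 4 elements reached the barcode limit in TC28a2, and 3, 4 and 4 did in SW1353. Position 3122111 gave -0.25, -0.13 and -0.24 against 0.42, 0.13 and 0.67 (difference 0.57, SE 0.17, adjusted p = 0.0128, edgeR). Its call was lost without replicate 1 (0.55) and without replicate 3 (0.44). At 3134081 the difference was -0.06 (SE 0.125, adjusted p = 0.783, edgeR).

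No single-base change at the locus passed the allelic test. The allelic effect is the activity of the alternative element minus that of its reference element, tested as a change of the RNA to DNA ratio with the allele. By edgeR's quasi-likelihood test 0 of 252 variants were called in TC28a2, in SW1353 or in the difference between lines, beside 0.0227% of all 4399 and 4400 pairs in the lines and 0% for the difference. DESeq2's Wald test also called 0 at the locus. An unadjusted p under 0.05 was found for 8 variants in TC28a2 (3.17%, against 2.64% of all pairs), 9 in SW1353 (3.57%, against 3.27%) and 3 in the difference (1.19%, against 1.91%). The lowest adjusted p was 1.00 in TC28a2 and 0.991 in SW1353. The median SE of an effect was 0.21 and 0.23, so only large effects could be called. In simulated data over all pairs, 60% of effects of 1 log2 unit were recovered in TC28a2 and 40% in SW1353, against 10% and 0% of effects of 0.5.

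The effects were centred near 0. Their median was -0.01 in TC28a2 and 0.04 in SW1353, and the median absolute effect was 0.12 and 0.14. Across lines the effects correlated at r = 0.256 over 252 variants, many of which share a reference element, and 140 of 252 had the same sign. The 83 transitions and 166 transversions had median absolute effects of 0.13 and 0.12 in TC28a2 and of 0.14 and 0.15 in SW1353. The 2 deletions and the insertion had effects of -0.15 to -0.00 in TC28a2 and, in SW1353, 0.02 to 0.14.

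Of the 15 variants with an unadjusted p under 0.05 in either line, 10 had fitted effects of the same sign in both lines, and 2 had such a p in both. C3133220G had effects of 0.40, 0.15 and 0.46 in TC28a2 and of 0.73, 0.69 and -0.07 in SW1353. The alternative was higher in 5 of 6 replicates, with fitted effects of 0.34 (SE 0.14, unadjusted p = 0.028 from the edgeR fit) and 0.45 (SE 0.179, unadjusted p = 0.0281 from the edgeR fit). Of its reference element, activity was 0.02 ± 0.10 (SD, n = 3) in TC28a2 and 0.35 ± 0.23 in SW1353, and of the alternative 0.36 ± 0.09 and 0.80 ± 0.30. The other variant with an unadjusted p under 0.05 in both lines was A3122111T, at -0.82 (SE 0.346) and -0.99 (SE 0.403).

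At position 3122111 the shared reference element itself varied. Its replicates were at -0.69, 0.56 and 0.86 in TC28a2 and at 0.56, 0.30 and 1.99 in SW1353. All 3 alternatives had negative fitted effects in both lines, -0.82 to -0.47 in TC28a2 and -1.27 (A3122111C) to -0.32 in SW1353, but in replicate 1 of TC28a2 each alternative was above the reference, and in SW1353 A3122111G was above it in 2 of 3 replicates (0.29, 0.63 and -1.91). These 3 effects share 1 reference and count as 1 observation of it.

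The other variants had an unadjusted p under 0.05 in 1 line, and no effect passed adjustment in either. At position 3131160, whose native element stood well above its scrambled version, the G and T alternatives were lower than the reference in all 3 SW1353 replicates. That native element is the same shared reference and, at 1.02, the highest element of the position in SW1353. The comparison with the scrambled version and both allelic effects thus rest on 1 element and are not independent. A3131160G had -0.85, -0.29 and -0.85 (fitted -0.67, SE 0.195, unadjusted p = 0.00535 from the edgeR fit), and A3131160T had -0.72, -0.26 and -0.90 (fitted -0.63, SE 0.2). In TC28a2 their fitted effects were -0.28 and -0.20, of the same sign, and the differences between lines were -0.39 (SE 0.299) and -0.43 (SE 0.301), with unadjusted p = 0.21 and 0.172 from the edgeR fit. G3130706A was at 1.33, 0.50 and 0.74 in SW1353 (fitted 0.86, SE 0.263) and at -0.01 (SE 0.234) in TC28a2. The difference between lines, 0.86 (SE 0.355), did not pass after adjustment (adjusted p = 1.00, edgeR).

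In TC28a2 the smallest unadjusted p belonged to A3135803C, in the active element next to the 11 bp step. Its replicates were 0.11, 0.72 and 2.04 in TC28a2, with a fitted effect of 0.96 (SE 0.342). In SW1353 they were 0.25, -0.82 and 0.01, on both sides of 0. T3130658G was more even in TC28a2, with -0.53, -0.61 and -0.39 (fitted -0.51, SE 0.193), and its fitted effect in SW1353 was 0.06 (SE 0.224). C3134944G had 0.80, 0.50 and 0.07 in TC28a2 (fitted 0.46, SE 0.178) and a fitted 0.16 in SW1353. A3136331T, in the last element of the locus, had -0.31, -0.48 and -0.27 in TC28a2 (fitted -0.35, SE 0.142) and a fitted -0.02 in SW1353. All of these had adjusted p-values of 1.00 in TC28a2 in the edgeR fit, and none of their line differences passed the test.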

How the data were processed

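The authors deposited raw counts per barcode, whole numbers without normalization, in columns named by molecule, allele, replicate and barcode position per the file headers, limited to the first 500 barcode positions. The build is hg19 per the submitters' processing notes. The counting program, the cleaning of barcodes and whether molecules or reads were counted are not given in the sources used here, so errors cover counting and replicate spread only. The order of values along the barcode positions was found earlier to fit the replicate names only in part, so the labelled replicates may mix values of different samples.

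Members were all pairs on chromosome 8 between 3100000 and 3150000, and the members and lists were chosen with earlier results of these data known. Counts were summed over barcodes per element and replicate. Elements needed at least 10 DNA barcodes in every replicate. Tests were two-sided quasi-likelihood tests of edgeR 4.0.16 (R 4.3.3) with TMM, fitted over all features, with Benjamini-Hochberg adjustment and a threshold of 0.05. Replicate was a block because DNA and RNA of a replicate were isolated together per the labels' protocols, although same-numbered DNA and RNA deviations correlated at only -0.0116 to 0.0231. SEs are Wald errors of these fits. Values per replicate used a pseudocount of 0.5 and are shown for description.

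Named were position 3128471, the 6 highest and 6 lowest positions by the mean of both lines, up to 5 positions with the largest called line difference each way, called variants, and the 5 variants with the smallest unadjusted p per line. Flanking positions, A3122111T and the steps were added after their values were seen. Alternatives were DESeq2 1.42.0 (its size factors and its Wald test), other barcode minimums, no block, each replicate left out, the highest barcode left out, another reference level and, added later, elements at the barcode limit left out. All fits were tested on simulated counts with 200 changed features. In simulated element data, 94% of changes of 1 log2 unit were recovered in TC28a2 and 84% in SW1353.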

Additional observations from a re-analysis of the deposited data

Results flagged for a closer look

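The listed differences between the lines are those that passed the test of the interaction of line with RNA against DNA (edgeR, 3 replicates a group). Position activity was higher in SW1353 by 0.85 (log2) at 3125811, by 0.64 at 3133641, by 0.60 at 3131484, by 0.59 at 3132262 and by 0.57 at 3122111, with adjusted p between 1.12e-05 and 0.0128. The call at 3122111 was lost without replicate 1 and without replicate 3, and only 1 of its 4 elements was above the scrambled level in SW1353. At 3133641, 3131484 and 3132262 all 4 elements reached the barcode limit in TC28a2 and 3, 4 and 4 of them in SW1353, and the part of the limit was not tested. With groups of 3 replicates no sample was tested as standing apart.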

How the results depend on the processing

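Over the named positions, variants and steps, direction and side of the threshold held in 680 comparisons with an alternative, 23 lost and 15 gained a call, and 8 changed sign. Counts of calls stayed within 1.5 times in 139 comparisons and left that range in 43. With the highest barcode left out, 173 elements were above and 11 below in TC28a2 (47.0% and 4.04% of all elements), and 44 elements differed between lines (13.0%, beside 15.5% of all). With all features as the reference level, elements above and below were 25 and 25 in TC28a2 and 53 and 34 in SW1353, positions were 15 and 26 in TC28a2 and 16 and 31 in SW1353, and the lines differed at 6 elements and at 7 positions upward and 1 downward. Without elements at the barcode limit, elements above were 37 in TC28a2 (16.8%, beside 21.1% of all). In SW1353 they were 92 (36.2%, beside 34.9%), with 0 below (1.47% of all). Positions in TC28a2 were 34 above and 2 below (55.7% and 3.28%, beside 51.6% and 4.96%). Steps were 9 in TC28a2 (10.8% upward and 13.5% downward, beside 10.8% and 9.72%). In SW1353 they were 11 (11.4% and 13.6%, beside 11.5% and 7.33%). The lines differed at 0 elements and 2 positions. Fewer elements entered these fits. With no replicate block, 11 elements were below in TC28a2 (3.25%, beside 3.11% of all) and 2 positions in SW1353 (2.33%, beside 3.09%). No other count left the 1.5-fold range then (allelic calls stayed at 0). With at least 30 DNA barcodes, 1 element was below in SW1353 (0.299%, beside 1.76% of all). Leaving out 1 replicate gave 65 to 77 elements above in TC28a2 (19.2% to 22.8%, beside 23.2% to 23.9% of all). Elements below were 2 to 4 in TC28a2 (1.00% to 1.72% of all were below) and 1 to 2 in SW1353 (0.743% to 1.49% of all). Positions below were 2 to 5 in TC28a2 and 1 to 2 in SW1353, beside 3.08% to 5.15% and 1.55% to 1.93% of all features. Steps in SW1353 were 9 to 11. Between lines, 2 to 15 elements and 12 to 19 positions differed. Signs turned when 1 replicate was left out at 3135714 in TC28a2 (-0.56 to 0.0094), at 3133939 in SW1353 (-0.12 to 0.087) and at 3128148 in SW1353 (-0.34 to 0.019). They also turned at 3133939 in SW1353 without elements at the limit (0.037), at 3135792 in SW1353 without the highest barcode (0.061) and, by the shift of the reference level, at 3133641 in TC28a2 (-0.12) and 3122111 in SW1353 (-0.22). The cause of the other changes was not tested. In simulated data at these depths, 10% of allelic effects of 0.5 were recovered in TC28a2 and 0% in SW1353.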
